A study of Mus musculus with 72 samples.

Results

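The comparison concerned 19 single serotonergic neurons of the mouse dorsal raphe (DR) that carry a history of Npy2r-cre expression, 10 from the caudal DR (cDR) and 9 from the rostral DR (rDR). They were chosen by their sample titles, which give the driver and the microdissected subdomain, and they are 19 of the 70 manually sorted cells of the study, which also holds a pooled 10X experiment. The 10X cells came from mice younger than 77 days, which carried either En1-cre, Pet1-Flpe and RC-FrePe or Pet1-Flpe and RC-FL-hM3Dq. All 19 came from Npy2r::cre+/-;Pet1::Flpe+/-;RC::FrePe+/- mice, and 7 were taken at postnatal day 77 (4 caudal, 3 rostral) and 12 at day 87 (6 caudal, 6 rostral). Cre was knocked into the Npy2r locus, Flpe is driven by Pet1 regulatory sequence, and the RC::FrePe reporter gives EGFP only to cells in which both recombinases have acted, so the label records past as well as present expression. EGFP-labelled cells were picked by hand after dissociation and each was made into a SMART-Seq v4 full-length library. The labels name no animal, so each subdomain counted as 1 sample, cells were not treated as replicates and no test between the subdomains was made. Mice of 77 days cannot be mice of 87 days, and each difference is therefore also given within each age.

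Serotonin neurons of the DR share one core programme, in which Tph2 makes serotonin, Slc18a2 loads it into vesicles and Slc6a4 takes it back up, under transcription factors such as Pet1 (Fev), Lmx1b, Gata2 and Gata3. Beyond this core they differ in position and in what else they can release: many contain the vesicular glutamate transporter VGLUT3 (Slc17a8), others the GABA-synthesising enzymes Gad1 and Gad2. Npy2r encodes the Y2 receptor for neuropeptide Y, a Gi-coupled receptor that often sits on axon terminals. The manually sorted cells of the study addressed how molecular subtypes of these neurons correspond to subregions of the DR.

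Levels are given as CPM, the reads of a gene scaled to a fixed total of reads per cell, and a difference is the caudal minus the rostral mean of log2(CPM + 1), given with the SD over cells. Of 24256 genes, 9785 reached 10 CPM in at least 4 of the 19 cells and were compared. Genes that passed only through the group where they are high are among them. A gene was called when its difference was at least 2 (4-fold) and at least 1 (2-fold) on the same side at each age. Read totals were 3574624 to 6490477 in the caudal cells and 756872 to 7664103 in the rostral cells. Rostral cells 4 to 7, all of 87 days, held 756872 to 1489171 reads, so 3 reads are worth 3.96 CPM in the shallowest and at most 0.839 CPM in any other cell outside these 4. Genes with reads numbered 7238 to 10017 per caudal cell and 7047 to 9953 per rostral cell. Mitochondrial genes took 0.847% to 4.48% of reads in 18 cells and 22 of 1434319 reads (0.00153%) in rostral cell 5. The 10 oligodendrocyte markers summed to 18.8 to 165.0 CPM per caudal and 68.7 to 243.0 CPM per rostral cell. Astrocyte markers summed to at most 47.3 CPM per caudal cell and at most 75.3 CPM per rostral cell, and vessel markers to at most 1.51 and 12.8 CPM. The 5 ependymal markers summed to at most 208 and 63.1 CPM, nearly all of it from Dynlrb2, while Tmem212 and Rarres2 had no reads in any cell. Cnp and Mbp had the highest medians of the oligodendrocyte markers, and Olig1, Olig2, Pdgfra, Aqp4, Gfap and the microglial Tmem119 had no reads in any of the 19 cells. The part of these values in the differences was not tested.

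The cells of both subdomains had the defining transcripts of serotonin neurons. Tph2 was at 3073 CPM in the lowest caudal cell, 9932 at the median and 21204 in the highest, against 5592, 7045 and 16343 CPM in the rostral cells. Fev ranged from 279.3 to 938 CPM in caudal and from 372 to 1061 CPM in rostral cells. The groups overlapped for both genes, with differences of 0.22 for Tph2 and -0.36 for Fev. The transporter genes Slc6a4 (-0.05) and Slc18a2 (-0.23), the decarboxylase Ddc (0.03) and the tetrahydrobiopterin genes Gch1 (-0.15), Gchfr (-0.24), Qdpr (-0.10), Pts (0.13) and Spr (-0.08) likewise lay close to 0. Those of Lmx1b (0.50), Gata3 (-0.66) and En1 (-0.42) were smaller than the SD over caudal cells or over rostral cells. Caudal cell 10 was the lowest of the 19 cells for Tph2, Slc6a4 (614 CPM) and Gch1 (307.5 CPM).

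Some genes of serotonin handling were less even. Maob, which encodes a monoamine oxidase, had a median of 1011 CPM in caudal and 1570 CPM in rostral cells but no reads in caudal cells 5 and 7, while every rostral cell had at least 702 CPM. The autoreceptor gene Htr1a spanned 0 to 336 CPM in the caudal cells and 66.9 to 234 CPM in the rostral cells, with medians of 94.3 and 175 CPM. These gave differences of -2.71 for Maob (caudal SD 4.37, rostral SD 0.70) and -1.90 for Htr1a (SD 2.89 and 0.60), so the caudal cells varied more than the rostral ones. Maob was not called because its difference was -0.56 at day 77. Gata2 (-1.25), the transporters Slc29a4 (-1.53) and Slc22a3 (0.92) and Maoa (0.90) had overlapping groups and were not called. Of the 20 compared genes of the serotonergic list 1 was called, the homeobox gene En2, on the rostral side, where 1.62% of all compared genes were called. Foxa2 had no reads in any of the 19 cells and Nkx2-2 had reads in 1 cell of each group.

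Npy2r itself (mouse GRCm38, chromosome 3, 82538383 to 82548989) was low in cells that its driver had marked. In the caudal cells it was at 0, 28.7, 150.4, 18.8, 0, 0, 3.39, 17.2, 6.57 and 0.191 CPM in order of cell number, and in the rostral cells at 1.97, 0.192, 0, 2.64, 0, 9.40, 0, 3.39 and 6.31 CPM. Reads were thus present in 7 of 10 caudal cells (exact 95% interval 34.8% to 93.3%) and in 6 of 9 rostral cells (29.9% to 92.5%). These intervals take cells as independent draws and do not cover differences between animals. The groups overlapped. The difference of 1.25 (SD 2.55 and 1.32) came from day 77, where it was 3.50, and was -0.13 at day 87. Caudal cells sorted by another driver, Slc6a4-cre, had a median of 38.7 CPM of Npy2r, against 4.98 CPM in the caudal Npy2r-cre cells. Slc6a4-cre cells from elsewhere in the DR had medians of 0. Npy, Pyy, Npy1r and Npy5r had no reads in any of the 19 cells.

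**Figure D1:**
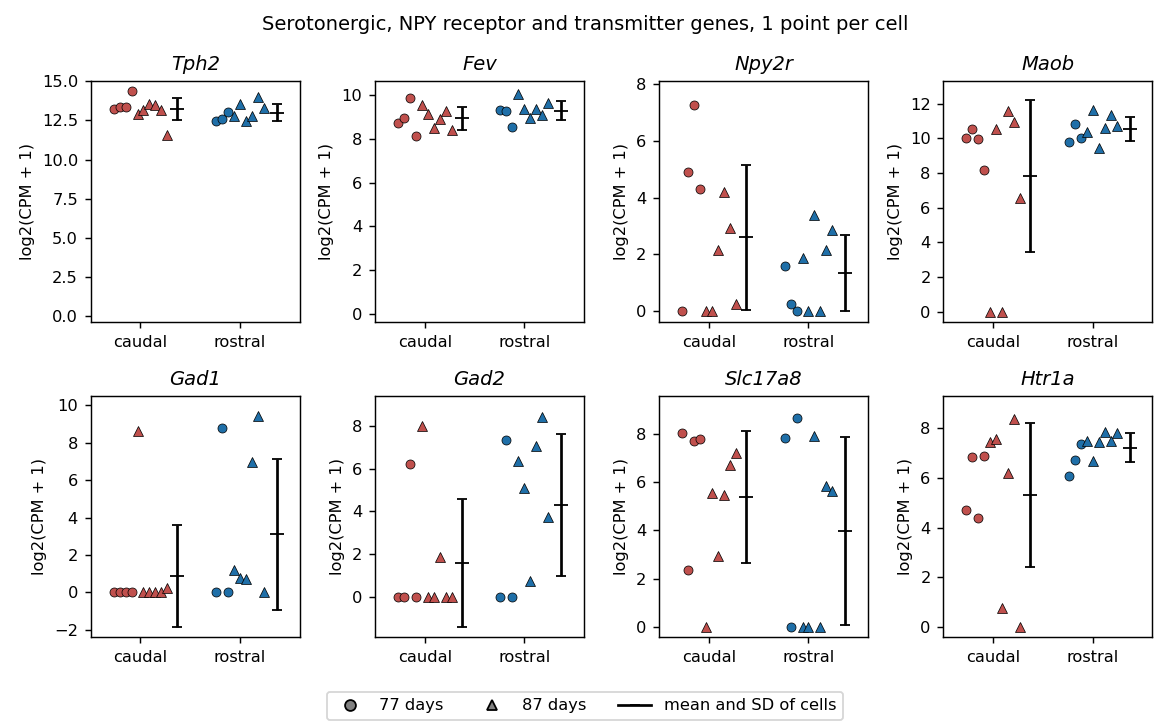
Levels of 8 genes in each cell, as log2(CPM + 1), with caudal cells in red, rostral cells in blue, circles for 77 days, triangles for 87 days, and the mean and SD over cells beside each group. Tph2 and Fev sit in one narrow band in both subdomains, Maob is at 0 in 2 caudal cells and Htr1a in 1, and Gad1, Gad2 and Slc17a8 are either present or absent from cell to cell.

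Transmitter genes varied from cell to cell within each subdomain. Slc17a8 (chromosome 10, 89574020 to 89621249) was at 10 CPM or more in 7 of 10 caudal and 5 of 9 rostral cells. It was listed at 0 in caudal cell 5 and in rostral cells 2, 4, 5 and 7, and otherwise reached 262 CPM in caudal and 401 CPM in rostral cells, for a difference of 1.39 that was not called. Gad1 or Gad2 was at 10 CPM or more in 2 of 10 caudal and 6 of 9 rostral cells. In the caudal group, 6 cells had Slc17a8 without either Gad gene, 1 had a Gad gene without Slc17a8, 1 had both and 2 had neither. In the rostral group, 3 cells had Slc17a8 alone, 4 a Gad gene alone and 2 had both.

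Each of the cells with Gad1 at 10 CPM or more also had Gad2 at that level, and other cells had Gad2 alone. Gad1 (chromosome 2, 70561303 to 70602014) was at 439 CPM in rostral cell 2, 122.7 CPM in rostral cell 7 and 695 CPM in rostral cell 8, at 1.32 CPM or less in the other rostral cells, at 394 CPM in caudal cell 5 and at 0.191 CPM or less in the other caudal cells. Its difference was -2.21, with -2.93 at day 77 and -1.71 at day 87, and it rested on these few cells: without rostral cell 2, 7 or 8 it was -1.50, -1.73 or -1.42 and no longer called. Gad2 was at 12.2 to 336 CPM in 6 rostral cells and in caudal cells 3 (74.0 CPM) and 5 (250.1 CPM), and its difference of -2.69 was not called because it was only -0.89 at day 77. Caudal cell 5, with both Gad genes above 10 CPM and no Slc17a8, shared this combination with rostral cells 2 and 7. Slc32a1, which loads GABA into vesicles, had reads in no caudal cell and in 1 rostral cell at 0.802 CPM. Slc17a6, Slc17a7, Th, Slc6a3 and Dbh, markers of other glutamatergic and catecholaminergic neurons, had no reads in any of the 19 cells, and Chat, Slc6a5 and Nos1 had reads in at most 2 cells of a group.

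Across the transcriptome, 224 genes were called as higher in the caudal cells (2.29% of those compared) and 159 as higher in the rostral cells (1.62%), 383 in all (3.91%). With a pseudocount of 10 in place of 1 these counts were 7 and 7, and with medians of log2 values 411 and 312. The median difference over all compared genes was 0.02. The calls are a ranking by size and not a test, and agreement between the ages was limited. Of 1106 genes (11.3%) at least 4-fold higher in caudal cells at day 77, 50.0% were on the same side at day 87, against 48.1% of all compared genes. Of 613 genes (6.26%) at least 4-fold higher in rostral cells at day 77, 58.6% were on the same side at day 87, against 51.9% of all. Starting from day 87, 67.8% of 382 caudal genes and 55.6% of 473 rostral genes kept their side at day 77, against 53.1% and 46.7% of all. Only 3 rostral cells were available at day 77, against 6 at day 87.

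**Figure D2:**
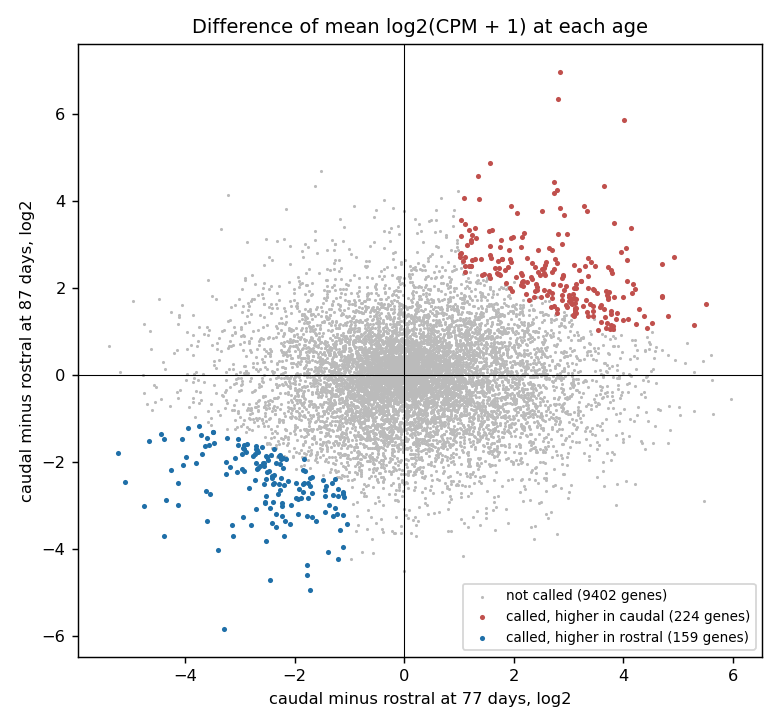
Difference between caudal and rostral cells for each compared gene at 77 days (x axis) and at 87 days (y axis), both as mean log2(CPM + 1), caudal minus rostral. The grey cloud shows no strong common axis, and the called genes, 224 in red and 159 in blue, lie in the 2 corners that the rule defines.

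Complete separation of the groups was rare. No gene had every caudal cell above every rostral cell (0% of those compared), and 1 gene, Pmepa1, had every rostral cell above every caudal cell (0.0102%). Pmepa1 (chromosome 2, 173224458 to 173276731), a membrane protein that restrains TGF-beta signalling, was at 2.62, 11.9 and 29.2 CPM in the lowest, median and highest caudal cell and at 34.2, 77.5 and 142 CPM in the rostral cells. Its difference was -2.47 (SD 0.90 and 0.68), with -2.93 at day 77 and -2.20 at day 87. When each cell was thinned to the reads of the shallowest cell, no gene separated the groups completely. In 36 genes at least 90% of the 90 pairs of a caudal and a rostral cell had the caudal cell higher (0.368%), and in 36 genes the rostral cell (0.368%). The called genes among these with a median of at least 20 CPM in the higher group, predicted genes left out, were 12 caudal and 11 rostral genes, referred to here as leading genes.

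Wscd1 was the first of the caudal leading genes. It was at 31.3, 137 and 315 CPM in the lowest, median and highest caudal cell, whereas 6 of 9 rostral cells had no reads and rostral cells 1, 3 and 5 were at 1.97, 143 and 18.8 CPM. The difference was 5.27 (SD 1.16 and 2.59), the largest of the leading genes, and 4.01 and 5.87 at the 2 ages. Nfil3, a basic leucine zipper transcription factor, and Cckar, the receptor for cholecystokinin that prefers the sulphated peptide, had reads in 8 of 10 caudal cells each and in none of the 9 rostral cells. Their mean CPM in caudal cells was 347 and 339 times a floor of 3 reads over the pooled rostral cells (0.0874 CPM). That floor gives the shallow rostral cells little weight, since 3 reads are worth 3.96 CPM in the shallowest, so these ratios are not strict lower bounds. In caudal cells Nfil3 reached 104.8 CPM and Cckar 87.6 CPM. Dand5, a secreted antagonist of Nodal, was present in 9 caudal cells and in rostral cell 3 only, at 3.60 CPM.

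Other caudal leading genes were present in both groups at unlike levels. Chn2, a Rac GTPase-activating protein, had medians of 144 CPM in caudal and 17.2 CPM in rostral cells and a difference of 3.63. The adhesion gene Cadm1 was at 104 to 825 CPM in caudal and 12.7 to 318 CPM in rostral cells, a difference of 2.33 with 2.45 and 2.37 at the 2 ages. Mrap2, an accessory protein of melanocortin and other receptors, was at 119.9 to 524 CPM in caudal and 0 to 209 CPM in rostral cells. Its difference of 3.08 was 1.81 without the 4 shallow rostral cells. Those of Cacnb2, a calcium channel beta subunit (2.88), and Lrrfip1 (2.56) became 1.71 and 1.49 in the same way, so these 3 are not called among the deeper cells. The calpain inhibitor gene Cast (3.94), the kinase gene Stk32c (3.73) and the DNA replication gene Gins4 (2.38) completed the 12. Without rostral cell 1 the Cadm1 difference was 2.00 and the Gins4 difference 1.97, and the call was lost for both. The calls of Gins4 (1.97) and Stk32c (3.72, but 0.62 at day 77) were also lost without rostral cell 2, and that of Mrap2 without caudal cell 1 or 3 or rostral cell 2, through values of 0.66 to 0.83 at day 77.

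The rostral leading genes began with Hrh3, the histamine H3 autoreceptor and heteroreceptor gene (chromosome 2, 180099465 to 180104484). It was at 0, 0.714 and 66.9 CPM in the lowest, median and highest caudal cell and at 0.715, 73.2 and 207 CPM in the rostral cells, with a difference of -3.92 (SD 2.21 and 2.25). Nhsl1 had reads in 2 of 10 caudal cells, at no more than 2.37 CPM, and in 9 of 9 rostral cells at 1.34 to 101 CPM. Lrig2, a transmembrane protein with leucine-rich repeats, had at most 15.1 CPM in caudal and at least 9.83 CPM in rostral cells. Both had a difference of -3.92, and in each 2.22% of cell pairs had the caudal cell higher. The metabolic enzyme genes Gstm1, a glutathione transferase (-2.59), Cdo1, a cysteine dioxygenase (-2.51), and Cpox of haem synthesis (-2.85) were all lower in caudal cells. Cdo1 was uniform in the rostral cells, at 47.6 to 126 CPM. Tmem198 (-3.59), Capn15 (-3.39), Tlnrd1 (-3.01) and the Polycomb gene Phc2 (-2.26) made up the rest. All 11 stayed called without the 4 shallow rostral cells and after thinning. Leaving out single cells ended the call of Cdo1 (without caudal cell 1, -2.23), Phc2 (without caudal cell 5 or 8, -1.94 or -1.82) and Tlnrd1 (without caudal cell 1, 2 or 3, -2.93 each, or rostral cell 2, -2.84).

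**Figure D3:**
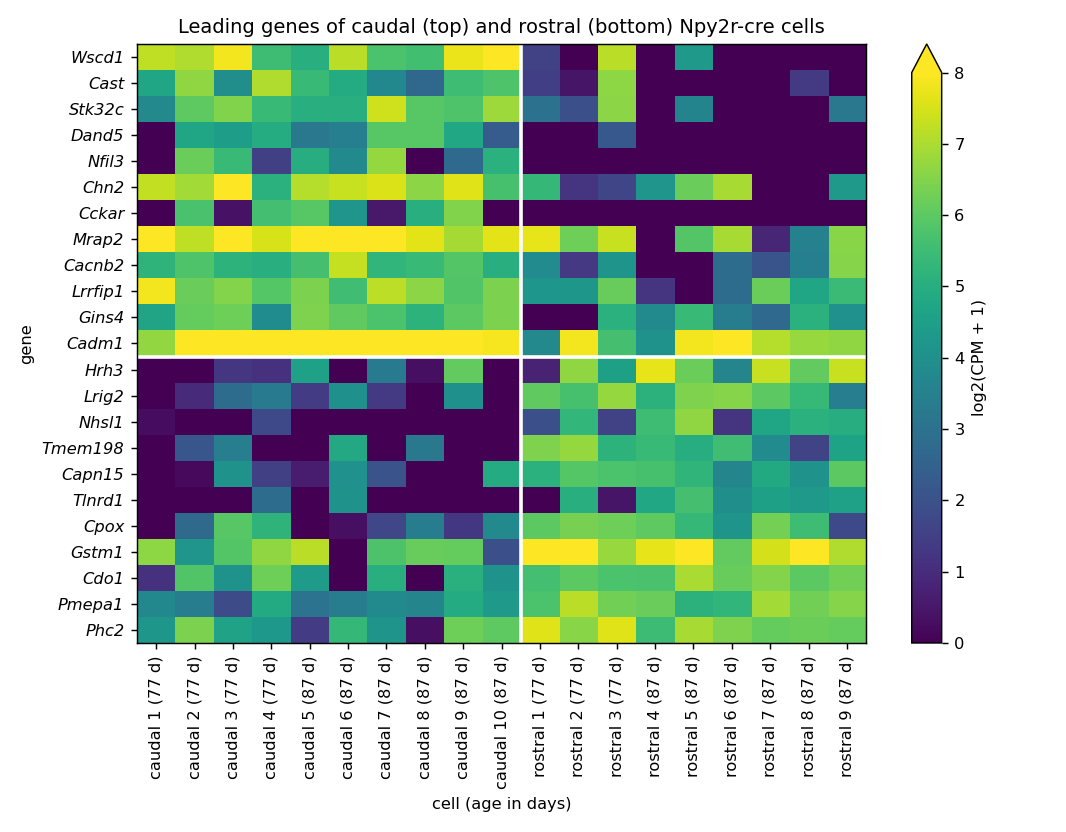
Levels of the 12 caudal (top) and 11 rostral (bottom) leading genes in each of the 19 cells, as log2(CPM + 1), with the colour scale ending at 8 and the white line between caudal and rostral cells. Rostral cell 3 stands out by high Wscd1, Cast and Stk32c. The blocks are contrasted because the genes were chosen on these cells.

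Several transcription factors of rostral and dorsal serotonergic subtypes were higher in the rostral cells. Of 15 such factors, 11 were compared, all 11 had a difference below 0 (median -1.71, against 0.02 over all compared genes), and none was called as higher in caudal cells. Those called as higher in rostral cells, where 1.62% of all compared genes were called, included Bcl11a, Pax5, En2 and Pou3f2. Pou3f1, a list member that did not reach the level needed to be compared, ran the other way, with reads in 5 of 10 caudal cells, up to 33.3 CPM, and in none of the 9 rostral cells. The list holds factors that the study itself picked from the 10X cells, and it was assembled with these results known. Bcl11a (chromosome 11, 24076564 to 24173558), a zinc finger repressor, had no reads in any caudal cell and reads in 7 of 9 rostral cells, up to 92.5 CPM. Its mean CPM in rostral cells was 631 times a floor of 3 reads over the pooled caudal cells, which is not a strict lower bound. Pax5 (chromosome 4, 44524748 to 44710694), a paired-box factor of the midbrain-hindbrain boundary, was at 0 in 9 caudal cells and 2.49 CPM in the other, and at 0, 80.7, 0.180, 14.5, 76.0, 12.1, 6.415, 30.8 and 3.71 CPM in rostral cells 1 to 9. Its difference was -3.22, with -2.20 and -3.71 at the 2 ages. En2, the partner of En1 at the midbrain-hindbrain boundary, had medians of 0 and 29.7 CPM and a difference of -2.73, while En1 was similar in both. Pou3f2, also called, was at 10.6 to 77.8 CPM in rostral cells 2, 4, 7 and 9 and at 0 in every other cell. Its difference of -2.17 was -1.91 without rostral cell 2, with 0 at day 77, -1.66 without rostral cell 7, -1.76 without rostral cell 9 and -1.94 without the 4 shallow rostral cells, and the call was lost each time. It falls outside the 4 members named per list and was added after its values were seen. At day 77, Bcl11a and Pax5 rested on rostral cell 2: without it their day 77 differences were -0.12 each and the calls were lost, while the overall differences were -3.73 and -2.86. Without rostral cell 3 that of En2 was -2.52, and -0.91 at day 77.

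The factors of caudal and ventral subtypes were not one-sided. Of 20, 12 were compared, 7 had a difference above 0 and 5 below, the median was 0.54 and none was called, and at the 3.91% called over all compared genes a list of this size says little by that. The 16 Hox genes listed summed to at most 0.197 CPM in a caudal cell and 0.767 CPM in a rostral cell, and none was compared.

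Receptor genes differed in both directions. Among 24 compared neuropeptide and monoamine receptors, Hrh3, Htr1d and Hcrtr1 were called as higher in rostral cells and Sstr2 as higher in caudal cells, against 1.62% and 2.29% of all compared genes, and the median was 0.24. Htr1d, a Gi-coupled serotonin receptor, had medians of 3.04 CPM in caudal and 32.1 CPM in rostral cells (difference -2.54). Hcrtr1, the orexin 1 receptor, was at 0 to 144 CPM in caudal and 7.39 to 465 CPM in rostral cells. Its difference of -2.03 is just past the limit, and it was -1.57 to -1.99 without caudal cell 2, 8 or 10 or rostral cell 1, 2, 3, 5 or 7. Sstr2, a somatostatin receptor, was at 77.1, 33.35, 27.2 and 201 CPM in caudal cells 3, 4, 8 and 10 and had no reads in the other 6 caudal and the 9 rostral cells. Without caudal cell 3 or 10 its difference of 2.39 was 1.95 or 1.80. Among peptide genes 1 of 19 compared was called, near the 3.91% of all compared genes. It was galanin (Gal), which had reads in 5 rostral cells, at 14.4 to 69.7 CPM, and in caudal cell 4 at 14.9 CPM. Its difference of -2.57 was -1.78 without the shallow rostral cells. The call was also lost without caudal cell 1, 2 or 3 (-2.52 each) or rostral cell 3 (-2.17).

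Of the GABA-A and glycine receptor subunits, 13 were compared, 11 had a difference above 0 (median 0.96) and 2 below. The presynaptic glutamate receptors Grm8 (2.95) and Grm7 (2.84) were the 2 called members of 15 compared glutamate receptors, both higher in caudal cells, where 2.29% of all compared genes were called. Grm8 had reads in 7 caudal and 2 rostral cells, and Grm7 in 9 caudal and 4 rostral cells. None of the 3 compared nicotinic and ATP-gated receptors was called.

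Among 38 compared potassium channel genes, Kcnip1 (2.98), a Kv4 channel partner, Kcnq5 (2.26) and the Kv4 subunit Kcnd2 (2.12) were called as higher in caudal cells and Kcnh2 (-2.18) as higher in rostral cells, 4 of 38 against 3.91% of all compared genes. Without the shallow rostral cells only Kcnip1 of these stayed called. By the ratio of mean CPM, Kcnd2 was 1.71 times higher in caudal and Kcnh2 1.83 times higher in rostral cells, against 14.3 times for Kcnq5. Kcnip1 had reads in 7 caudal cells, up to 82.4 CPM, and in 1 rostral cell at 1.26 CPM. Kcnd1, another Kv4 subunit gene, ran the other way, with reads in 1 caudal cell at 0.243 CPM and in 5 rostral cells up to 97.6 CPM. Its difference of -3.00 was not called because it was 0 at day 77. Among 32 other compared ion channels, the calcium channel subunit genes Cacnb2 and Cacna2d2 (-2.27) were called on the caudal and the rostral side. The medians of both channel lists, -0.12 and -0.16, were near that of all genes.

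Calcium-binding proteins were called in both directions. Calb2, which encodes calretinin, was at 0, 1811, 30.7, 1.02, 418, 763, 864, 1964, 2050 and 21.2 CPM in caudal cells 1 to 10, while the rostral cells had a median of 0 and a highest value of 59.8 CPM. The groups overlapped because 4 caudal cells were under 60 CPM. Its difference was 5.28 (SD 4.20 and 2.48), or 4.86 without caudal cell 2, which brings the day 77 difference to 0.64. Vsnl1, encoding the calcium sensor visinin-like 1, ran the other way, at 16.1, 87.4 and 630 CPM in the lowest, median and highest caudal cell and 28.3, 806 and 1398 CPM in the rostral cells. S100a11 (2.06) was called on the caudal and Cpne7 (-2.02) on the rostral side, so 4 of 24 compared members were called, 2 each way, against 3.91% of all compared genes.

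The counts of called members in the adhesion, guidance, matrix and signalling lists are small and stand against 3.91% called over all compared genes, in either direction. In axon guidance, the semaphorin receptors Plxnc1 (3.08, caudal) and Plxna2 (-2.11, rostral) were the 2 called of 32. Pcdh19 (2.44) and Pcdh8 (2.20) were called as caudal and Pcdh7 (-2.20) as rostral among 19 cadherins and protocadherins. In the synaptic adhesion list Tmeff2 (5.00) and Cadm1 were called as caudal and Flrt3 (-2.02) as rostral, of 45 compared. The receptor tyrosine kinase gene Kit was at 39.7 to 115 CPM in 6 rostral cells, at 8.82 CPM or less in the other 3, at 203 CPM in caudal cell 1, at 4.76 CPM in caudal cell 5 and at 0 in the other 8 caudal cells, a difference of -3.41. Fgf13 (-2.06) was the other called growth factor gene of 25. Of 18 heparan sulfate enzymes and core proteins, the sulfotransferase Ndst3 (3.37) was called as caudal and Sulf2 (-2.38) and the glypican Gpc6 (-2.35) as rostral. In G protein signalling, Plcb1 (2.48), Rasgrp1 (2.41) and Rgs10 (2.10) were caudal and the kinase Prkcq (-2.34) rostral, of 34 compared. By the ratio of mean CPM, Plcb1, Rasgrp1 and Rgs10 were only 1.72, 1.25 and 1.78 times higher in caudal cells. Fos (2.35), an immediate early gene that also responds to dissociation, was the 1 called member of 8 compared, a count too small to set against that share, with medians of 172 CPM in caudal and 37.8 CPM in rostral cells. None of 11 heat shock genes was called. The part of dissociation in other differences was not tested.

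Asb4, an imprinted gene that encodes part of a ubiquitin ligase (chromosome 6, 5383386 to 5433022), divided the rostral cells themselves. It was at 942, 416, 971, 369 and 832 CPM in rostral cells 2, 4, 7, 8 and 9 and at 0, 0, 0 and 0.672 CPM in rostral cells 1, 3, 5 and 6. No caudal cell was above 3.78 CPM. Its difference of -5.02 was the widest on the rostral side of the genes named here, with a rostral SD of 4.86. Among the cells of 77 days it came from rostral cell 2 alone, without which the difference was -4.44 overall and 0.00 at day 77. The other 16 compared imprinted genes were not called, and 1 of 17 is near the 3.91% called over all compared genes.

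Of the 65 called genes named by the rule for named genes, which leaves out Pou3f2 and Fjx1, 29 stayed called whichever single cell was left out, and 19 were no longer called without the 4 shallow rostral cells. With a pseudocount of 10 in place of 1, only 10 of the 65 were still called, namely Wscd1, Chn2, Mrap2, Cadm1, Hrh3, Lrig2, Calb2, Vsnl1, Tmeff2 and Asb4. By the ratio of mean CPM, 33 of the 65 were still called. Outside the leading genes, those called whichever cell was left out were Htr1d, Grm8, Grm7, Kcnip1, Vsnl1, Plxnc1, Pcdh19, Tmeff2, Kit, Ndst3, Sulf2, Gpm6b and Rprm. Of these, Htr1d, Grm7, Plxnc1, Kit, Sulf2 and Rprm were not called by the ratio of mean CPM, which was 1.72 to 3.15 for them. Vsnl1 (-1.86) and Rprm (-1.21) were within 4-fold without the shallow rostral cells, as were Flrt3 (-0.62), S100a11 (1.24) and Gpc6 (-1.53). For 14 genes the call ended with any of 4 or more single cells, among them Flrt3 with 10 (-1.55 to -1.95), S100a11 with 9 (1.75 to 1.97), Pcdh7 with 8, Cpne7 and Fgf13 with 7, Fos with 6, Kcnh2, Rgs10 and Nell2 with 5 and Rasgrp1 and Plxna2 with 4. Rasgrp1 was 1.84 without rostral cell 1 or 3, Rgs10 1.42 without rostral cell 1, Cpne7 -1.23 without caudal cell 10 and Fgf13 -1.58 without caudal cell 1. Kcnd2 was 1.63 without rostral cell 2, 3 or 5, Kcnq5 1.80 to 1.91 without caudal cell 1, 7 or 8, Pcdh8 1.64 to 1.88 without caudal cell 2, 7 or 10 and Prkcq -1.90 to -2.05 without rostral cell 2, 7 or 9. Gpc6 was -2.03 without rostral cell 2 and -1.84 without rostral cell 6, Cacna2d2 was -1.98 to -2.18 without caudal cell 2 or 3 or rostral cell 2, and Plcb1 was 2.20 to 2.39 without those same cells.

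**Figure D4:**
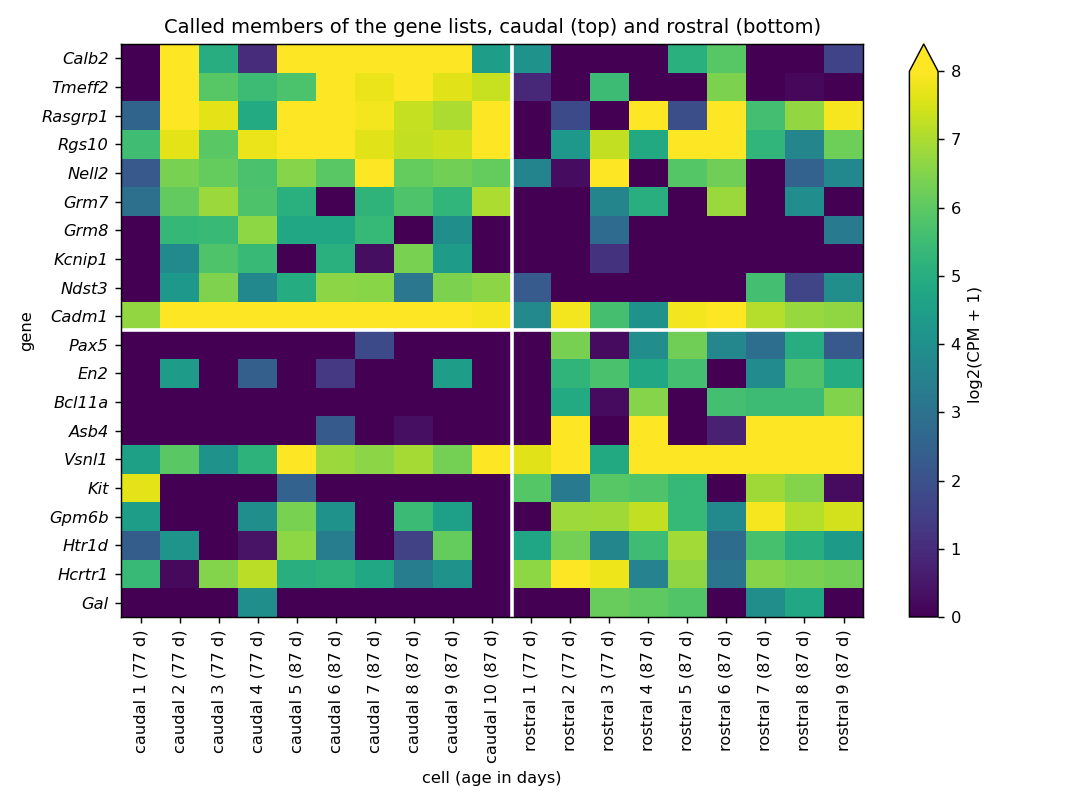
Levels of 20 called list members in each of the 19 cells, as log2(CPM + 1), caudal genes above and rostral genes below the horizontal line, with the colour scale ending at 8. Bcl11a is at 0 in every caudal cell, Asb4 is high in 5 rostral cells, and caudal cell 1 lacks Calb2 and Tmeff2 and has high Kit.

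The 2350 cells of the 10X experiment were clustered again into 14 clusters, numbered by their marker genes, and each sorted cell was assigned to one of them by anchor-based label transfer in Seurat. The numbering follows the published scheme, but membership was rebuilt and may differ from it. Of the 10 caudal cells, 10 were assigned to cluster 7. That all 10 went there departs from the paper, in which a smaller share of these cells mapped to clusters 10 and 14. The exact 95% interval of the share was 69.2% to 100%, with cells taken as independent draws and differences between animals not covered. Of the 9 rostral cells, 5 were assigned to cluster 6 (21.2% to 86.3%) and 1 each to clusters 5, 7, 10 and 13. Scores, which run from 0 to 1, were 0.81 to 0.91 for caudal cells 2, 3, 4, 6, 7, 8 and 9 and 0.40, 0.51 and 0.42 for caudal cells 1, 5 and 10. The rostral cells scored 0.29 to 0.68, below those 7 caudal cells. The 5 rostral cells given to cluster 6 were those with Asb4, namely cells 2, 4, 7, 8 and 9. Rostral cell 1 went to cluster 10, cell 3 to cluster 7, cell 5 to cluster 5 and cell 6 to cluster 13. With 20 or 50 dimensions every one of the 19 cells kept its cluster. With components 1 to 50, none left out, caudal cell 1 and rostral cell 3 went to cluster 10 and the other 17 cells kept theirs. That setting made 16 clusters, which were numbered by overlap with the main ones and used 12 of the 14 numbers. When each cell was instead given the cluster mean it correlated with best, 6 caudal cells went to cluster 7, 4 rostral cells to cluster 6 and rostral cell 3 to cluster 9. Caudal cell 1 then went to cluster 10, caudal cells 4 and 5 to cluster 9 and caudal cell 10 to cluster 14.

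**Figure D5:**
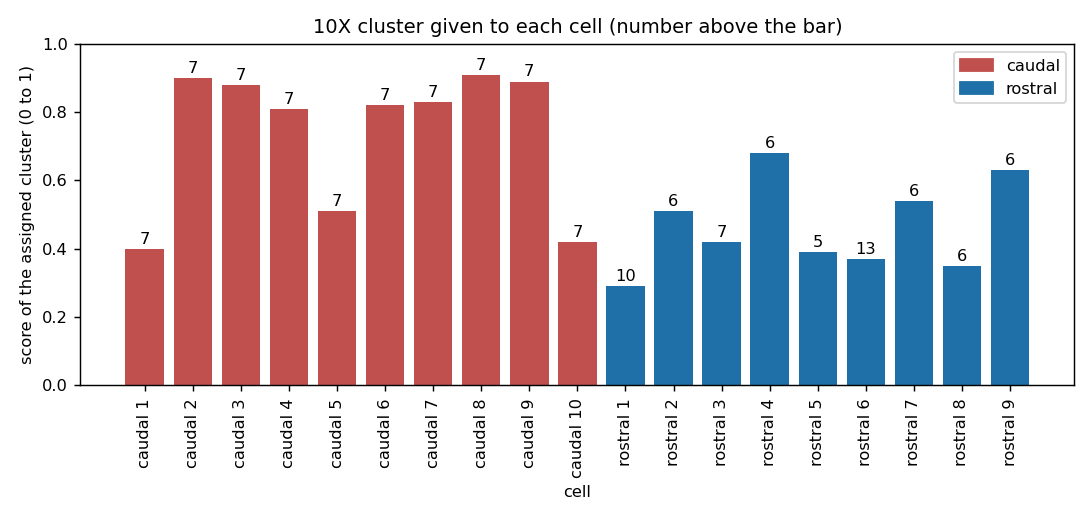
Score of the assigned 10X cluster (y axis, 0 to 1) for each caudal (red) and rostral (blue) cell, with the cluster number above its bar. Each of the 10 caudal bars carries cluster 7, and the rostral bars reach 0.68 and carry clusters 5, 6, 7, 10 and 13.

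The marker lists of these clusters differed along with the assignment, which was computed from the same cells and is no independent evidence. Their counts stand beside 2.29% of all compared genes called as caudal and 1.62% called as rostral. Of 20 markers of cluster 7, 19 had a difference above 0 (median 1.71), and Calb2, Tmeff2, Nell2, Rasgrp1, Cadm1, Fjx1 and Rgs10 were called as caudal and none as rostral. Tmeff2, a transmembrane protein with follistatin-like domains (chromosome 1, 50900683 to 51187270), was at 43.8 to 316 CPM in 9 caudal cells and at 0 in caudal cell 1. In the rostral cells it was at 43.6 CPM in cell 3, 84.6 CPM in cell 6 and under 1 CPM in the others. Of 20 markers of cluster 6, 15 had a difference below 0, 4 were called as rostral (Asb4, Gad1, Rprm and Pou3f2) and 2 as caudal (Rasgrp1 and Rgs10, which the cluster 7 list shares). For cluster 5, 5 of 19 compared markers were called as rostral, among them Gpm6b (-2.94), Rprm (-2.55) and Mctp1 (-2.54, lost without caudal cell 1 or rostral cell 1 or 2), and none as caudal. Chn2, Pcdh19 and S100a11 of cluster 10 were called as caudal and Sulf2 and Plpp4 (-2.76, and -2.44 with no difference at day 77 without rostral cell 2) of cluster 13 as rostral.

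Caudal cells could also be set against cells from elsewhere in the DR under another driver, with no cell shared. Slc6a4-cre marked 6 cells from the caudal DR (3342867 to 4377495 reads) and 27 from 3 other subdomains (2303574 to 5340551 reads). All 6 caudal cells were taken at 63 days, and of the others 15 at 63 and 12 at 90 days, so age differed between these groups. Of the 383 called genes, 237 (61.9%) had the same sign in these cells, against 50.6% of all compared genes, with 141 of the 224 caudal and 96 of the 159 rostral genes. With only the cells of 63 days, a choice made after the results were seen, it was 234 (61.1%), against 51.1% of all compared genes. At the larger size, 18 caudal and 33 rostral genes were also at least 4-fold apart in the same direction, as 2.68% and 3.07% of all compared genes were. By list, called members kept their sign in 4 of 4 G protein signalling genes, 2 of 2 glutamate receptors and 3 of 3 cadherins, and in Bcl11a, Pax5 and En2 but not Pou3f2 among the rostral transcription factors. They kept it in 0 of 2 axon guidance genes and 1 of 4 potassium channels. Gal was reversed, at 1.78.

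Some leading genes had this direction and others did not. Wscd1 had a median of 177 CPM in caudal Slc6a4-cre cells, a difference of 4.46 from the other subdomains. Cdo1 (-3.41), Cpox (-2.44) and Hrh3 (-2.09) were also more than 4-fold apart. Pmepa1 (-1.58), Gstm1 (-1.68), Nhsl1 (-1.49) and Gins4 (1.94) had the same sign at less than 4-fold. Cast (-0.66), Cacnb2 (-0.22), Nfil3 (-0.22), Cadm1 (-0.14), Lrig2 (0.12), Tmem198 (0.67), Tlnrd1 (0.92) and Phc2 (1.01) had the opposite sign, and Capn15 stood at 0 to 2 decimals. In all, 8 of 12 caudal and 6 of 11 rostral leading genes had the same sign, Capn15 not counted.

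Levels in 10X clusters 7 and 6, the clusters given most often to the caudal and the rostral cells, were compared for the same genes. Of the 156 called rostral genes found there, 87.2% were lower in cluster 7 than in cluster 6, and of 215 called caudal genes 64.7% were higher, while 43.0% of 9514 compared genes were higher in cluster 7. Since the clusters were picked by likeness to these cells, this is a description. With UMIs scaled like reads, cluster 7 held 9.40 CPM of Hrh3, 60.1 CPM of Wscd1, 75.0 CPM of Pmepa1 and 1.13 CPM of Pax5, where cluster 6 held 58.6, 4.025, 217 and 75.8 CPM. Lrig2, at 12.9 and 13.1 CPM, and Tmem198, at 12.2 and 13.4 CPM, were close to even there. Of the leading genes in the 10X table, 5 of 12 caudal and 4 of 10 rostral genes were at least 2-fold apart between these clusters in the same direction.

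At the median, pairs of caudal cells were more alike than pairs of rostral cells, but not every caudal cell was. Spearman's correlation across the compared genes, which is shaped by depth and by the shared core of serotonin neurons, had a median of 0.672 over 45 caudal pairs, 0.615 over 36 rostral pairs and 0.621 over 90 mixed pairs. The lowest pair was a caudal one, at 0.501 against 0.537 for the lowest rostral pair, and caudal cells 1 and 10 had medians of 0.563 and 0.584 with their own group, below the lowest rostral cell at 0.586. Each of the 10 caudal cells had a caudal cell as its nearest cell, and 7 of 9 rostral cells had a rostral one. At the median, however, 8 of 9 rostral cells correlated better with the caudal cells than with the other rostral cells, and no caudal cell did so with the rostral cells. Rostral cells 1 and 3 were nearest to caudal cell 3. The leading genes were chosen because these cells differ in them, so counts of them per cell describe the cells and are no evidence of a difference. At 10 CPM or more, the caudal cells had 9 to 12 of the 12 caudal leading genes and 2 to 6 of the 11 rostral ones. The rostral cells had 2 to 8 caudal and 8 to 11 rostral leading genes, and rostral cell 3, which label transfer gave to cluster 7 in the main setting, had 8 and 9. Caudal cell 1 had no reads of Calb2 or Tmeff2, 203 CPM of Kit and 4.48% mitochondrial reads, the highest share of the 19 cells.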

How the data were processed

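The manually sorted cells were sequenced as SMART-Seq v4 libraries, which have no molecular identifiers, and the authors deposited unnormalised counts of reads for each gene in each cell after mapping to mm10 with STAR 2.5.4 according to the methods and the submitters' processing notes. Which instrument read which cell is not given in the sources used here. The 10X table holds UMI counts that the authors made with Cell Ranger 3.0.2 and filtered. Columns were matched to samples by title. Counts were scaled to CPM over all genes, without length, so levels are not compared between genes. The difference between subdomains was the difference of group means of log2(CPM + 1). Genes had to reach 10 CPM in at least 4 cells. The labels name no animals and no test was run. Named genes were the members of the serotonergic, transmitter and NPY lists, the leading called genes (up to 15 a direction, at least 90% of pairs, median of at least 20 CPM) and up to 4 called members of every other list. The cells, lists and rules were chosen with earlier results of these data known. Shares have 95% Clopper-Pearson intervals, which take cells as independent draws and do not cover differences between animals. The floor was 3 reads, at 95% for counting error only, since PCR copies are not independent molecules. Label transfer used Seurat 5.3.0 in R 4.3.3 with 2000 variable genes, components 1 to 50 without 6 and 7, 20 neighbours, a resolution of 0.9 and 30 dimensions. Alternatives were TMM from edgeR 4.0.16, CPM without mitochondrial genes, a pseudocount of 10, no filter, medians, ratios of mean CPM, each age, thinning to 756872 reads, each cell left out, and for the transfer 20 or 50 dimensions, components 1 to 50 and correlation with cluster means. Python 3.11.15, numpy 2.4.6, pandas 2.3.3, scipy 1.17.1 and matplotlib 3.10.9 were used, and the comparison was tested on simulated data. Gene positions are those of RefSeq on GRCm38.p6, the sequence of mm10. Some genes are not reported here.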

Additional observations from a re-analysis of the deposited data

Results flagged for a closer look

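Of 180 sets of cell values examined, each holding 1 measure in the 10 caudal or the 9 rostral cells, 34 had a cell farther from its neighbour than Dixon's limit allows. Chance gives about 1 in 20, and a gene that is at or near 0 in all but 1 cell meets the limit easily. Values are log2(CPM + 1) unless said otherwise. Caudal cell 1 stood apart most often. It had the highest caudal mitochondrial share (4.48%), the lowest caudal Maoa (1.66), Kcnd2 (4.14), Nell2 (2.25), Plxnc1 (0.0), Tmeff2 (0.0) and Ndst3 (0.0), and the highest caudal Kit (7.67). Caudal cell 10 was lowest for the serotonergic genes Tph2 (11.6), Slc6a4 (9.27) and Gch1 (8.27) and highest for Sulf2 (6.42). Caudal cell 5 was highest for Gad1 (8.63) and Gpc6 (4.48), caudal cell 4 for Gal (3.99) and Nhsl1 (1.75), caudal cell 6 for Cacnb2 (7.3) and Asb4 (2.26), caudal cell 2 for Prkcq (5.12) and caudal cell 7 for Pax5 (1.8).

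Rostral cell 3 led the rostral group in this respect, with the highest Cast (6.64), Pcdh19 (4.19), Dand5 (2.2) and Kcnip1 (1.18) and the lowest Vsnl1 (4.87), Mctp1 (1.06) and Pcdh7 (0.0). Label transfer gave it to cluster 7, the cluster of the caudal cells, at a score of 0.42, but to cluster 10 with components 1 to 50, and correlation with cluster means gave it to cluster 9. Rostral cell 9 was lowest for Lrig2 (3.44) and Cpox (1.77) and highest for Kcnq5 (4.25), rostral cell 6 was highest for Pcdh8 (5.05), and rostral cells 1 and 7 were lowest for Rprm (0.0) and Maoa (0.0). Rostral cell 5 had a mitochondrial share of 0.00153%, the lowest of the rostral cells. What sets these cells apart was not tested.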

How the results depend on the processing

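No paired analysis was possible because the numbers in the titles only name cells and the comparison rests on no test. The counts of called genes, 224 caudal and 159 rostral, differed between settings. A pseudocount of 10 left 7 and 7, medians of log2 values gave 411 and 312, ratios of mean CPM 146 caudal genes (and 142 rostral), cells of 77 days alone 1106 and 613, and cells of 87 days alone 382 and 473, where the rule lacks its condition on the other age. Of the main calls, 166 and 112 were also called at 77 days alone and 137 and 114 at 87 days alone. TMM, CPM without mitochondrial genes, no filter and thinning gave 220 to 238 caudal and 149 to 167 rostral genes. Genes with complete separation numbered 1 by the main setting, 616 at 77 days, 43 at 87 days and 0 after thinning. Leaving out the 4 rostral cells under 2000000 reads, chosen after their depth was seen, gave 257 caudal and 294 rostral calls, of which 136 and 121 were shared with the main ones, and 13 separated genes. Leaving out single cells gave 192 to 261 caudal calls, 144 to 211 rostral calls, 1 to 5 separated genes and a same-sign share in Slc6a4-cre cells of 57.0% to 65.5%. That share was 61.9% by the main setting, 55.0% without the 4 shallow rostral cells, 55.5% with medians, 49.1% for genes called from cells of 77 days alone and 61.1% when only Slc6a4-cre cells of 63 days were used. Components 1 to 50 left 9 caudal cells in cluster 7. By correlation with cluster means, 6 caudal cells went to cluster 7 in place of 10. Of the values of named genes under these settings, 2608 moved by less than the spread between cells, 31 by more, and no called gene changed sign. That spread is wide, with an SD of 4.86 over rostral cells for Asb4, so a value within it can still lose its call. With a pseudocount of 10, 10 of the 65 named calls were kept. Read depth limits statements on absence in the 4 shallow rostral cells. The cause of these shifts was not tested.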

Other observations

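Most neuropeptide and granin genes, singled out here after their values were seen, had a difference above 0, and none was called as higher in caudal cells. Of 19 compared, 15 had a difference above 0 and 4 below (median 0.52), where 51.1% of all compared genes were above 0 (median 0.02) and 2.29% were called as caudal, and the summed level of the list was 12336 to 22058 CPM per caudal and 7931 to 14368 CPM per rostral cell. Chgb, a granin of dense-core vesicles, was at 1561 to 5415 CPM in caudal and 81.3 to 2446 CPM in rostral cells, with a difference of 1.93 (SD over cells 0.49 and 1.56), 1.80 at day 77 and 2.00 at day 87, and the caudal cell was higher in 90.0% of pairs. Scg2 was at 4693 to 9763 CPM in caudal and 2430.0 to 5564 CPM in rostral cells, a difference of only 0.69 with narrow spread (SD 0.31 and 0.38), and the caudal cell was higher in 94.4% of pairs. Vgf, a neuropeptide precursor, was at 10.3 to 145 CPM in caudal and 0 to 29.0 CPM in rostral cells. Its difference of 2.16 was past the 4-fold limit but not called, because it was 0.62 at day 77 and 2.95 at day 87. Scg3 differed by 1.27, Resp18 by 0.44 and Scg5 by 0.33. The 4 genes below 0 were Gal (-2.57, called as rostral), Pomc (-1.60), Chga (-0.27) and Pcsk1n (-0.16). Npb, too low to be compared, had reads in none of the 10 caudal and 6 of 9 rostral cells, up to 43.1 CPM.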
